A study of Mus musculus with 6 samples.

Results

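The miR-30 family of the mouse was measured on microRNA arrays of liver tumours and of the liver beside them. Its members were taken by name, as every row of the deposited table for miR-30a to miR-30e with any copy number or arm, and 10 of the 695 rows met that rule. They were 5 main arms (mmu-miR-30a, mmu-miR-30b, mmu-miR-30c, mmu-miR-30d and mmu-miR-30e) and 5 other arms (mmu-miR-30a*, miR-30b*, miR-30c-1*, miR-30c-2* and miR-30e*), where the asterisk is the table's mark for the less abundant arm. All tissue came from C57BL/6J mice, which had each been given 3E10 AAV-Rian-CMV vector particles through the superficial temporal vein on the day after birth. The vector is an adeno-associated virus built for gene targeting at Rian, a non-coding RNA gene of the imprinted Dlk1-Dio3 region. At 6 months of age, 3 liver tumours and 3 pieces of normal-looking liver next to them were excised and frozen, so the adjacent liver carried the same treatment as the tumours, and livers without vector were not analysed here. Pair numbers 1293, 1309 and 1316 join each tumour to its adjacent piece, as the titles give them. The tumour titled 1316 has a different number in its source label, so that pair is less certain. Values of the 3 arrays of a group are given in that order throughout. Whether each tumour was from a different mouse is not in the labels, so p-values measure only the spread between these pieces of tissue.

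A microRNA is cut from a hairpin transcript and guides the Argonaute protein to messenger RNAs that pair with its seed, the bases near its 5′ end, which lowers the output of those messengers. The miR-30 family is abundant in differentiated epithelia, and in zebrafish it is needed for the bile ducts of the developing liver. In human cells its main arms are known to repress SNAI1, a driver of the change from epithelial to mesenchymal cells, and BECN1, a starter of autophagy.

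The mature sequences are shown because the family is defined by its seed and because its members differ by few bases elsewhere. Of the 10 members, 7 matched an entry in the RefSeq sequences of GRCm38.p6. They are written 5′ to 3′ with the seed, bases 2 to 8, in capitals. The 3 main arms with a sequence share 1 seed and their first 12 bases.
miR-30a: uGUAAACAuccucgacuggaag
miR-30e: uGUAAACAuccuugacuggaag
miR-30c: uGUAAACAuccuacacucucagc
The other arms fall under 2 further seeds, 1 shared by miR-30a* and miR-30e* and 1 by both copies of miR-30c*.
miR-30a*: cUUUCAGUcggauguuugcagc
miR-30e*: cUUUCAGUcggauguuuacagc
miR-30c-1*: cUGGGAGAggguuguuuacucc
miR-30c-2*: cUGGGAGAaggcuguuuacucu

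Counting from 1 at the 5′ end, miR-30a and miR-30e differ only by C13U, with 21 of 22 bases identical, and miR-30a* and miR-30e* only by G18A. From miR-30a to miR-30c the substitutions are C13A, G14C, G18C, G19U and A20C, which leaves 17 of 22 compared bases identical. The 2 copies of miR-30c* differ by G9A, U12C and C22U. Probes for such near-identical targets may read each other, so how the signal splits between miR-30a and miR-30e, between miR-30a* and miR-30e*, and between the copies of miR-30c* is uncertain. No sequence of miR-30b, miR-30b* or miR-30d was at hand to compare, so the same limit may hold for them.

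The hairpins of these members lie in neighbouring pairs in the mouse genome. Mir30a is at chr1:23272269-23272339 on the plus strand, and its nearest microRNA gene is Mir30c-2 at chr1:23291701-23291784 on the same strand. Mir30c-1, at chr4:120769534-120769622, and Mir30e, at chr4:120772606-120772697, both lie on the minus strand within the protein-coding gene Nfyc. Mir30e also lies within Mir30f, a microRNA gene that the naming rule leaves out. Mir30b and Mir30d neighbour each other on chromosome 15. The Mir30a hairpin of 71 bases shows how both arms sit in 1 precursor, with miR-30a and then miR-30a* in capitals.
Mir30a: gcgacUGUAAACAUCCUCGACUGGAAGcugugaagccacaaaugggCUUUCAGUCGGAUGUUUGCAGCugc
Mature miR-30c has the same sequence in the hairpins Mir30c-1 and Mir30c-2, so its single row cannot tell those sources apart, while each copy has an asterisk row of its own.

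Values are on the log2 scale as deposited, and the arrays were alike in their medians (6.39 to 6.44) and their highest values (14.42 to 14.82). Tumours varied more than adjacent pieces, with a median SD 2.85 times as large over all rows. Tumour 1293 stood apart: it differed from the other tumours by a median of 0.21 over all rows and 0.34 over the miR-30 rows, whereas tumours 1309 and 1316 differed from the others of their group by 0.12 and 0.13 over all rows and 0.26 and 0.19 over the miR-30 rows. The adjacent arrays differed by 0.05 over all rows. The miR-30 differences that this array moved by more than 1.5 times, or whose call or sign it changed, are also given without it. Differences of single rows outside the family are given with all arrays only. The hepatocyte marker miR-122 held the highest value of every array, at 14.75 to 14.82 in adjacent liver and 14.42 to 14.82 in tumours. Another, miR-215, lay near the array medians, at 6.28 to 6.50. Precision is limited by how few arrays there are.

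All 10 miR-30 rows had a lower mean in tumours than in adjacent liver, with log2 differences from -0.70 to -0.01 and a median of -0.39. The main arms had a median of -0.40 and the other arms one of -0.36, which without tumour 1293 were -0.34 and -0.22. In that setting 9 of the 10 had a lower mean and their median was -0.28. In 8 of the 10, all 5 main arms and miR-30a*, miR-30c-2* and miR-30e*, the 3 tumours lay below the 3 adjacent pieces, which 22.9% of all rows did. The same 8 had an unadjusted limma p under 0.05 and a lower mean, against 14.1% of all rows. After Benjamini-Hochberg adjustment over the 695 rows, limma called 0 of the 10 lower and 0 higher at 0.05, where it called 0.288% of all rows lower and 2.59% higher. Less microRNA per cell and fewer cells that make it cannot be told apart in whole tissue.

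**Figure D1:**
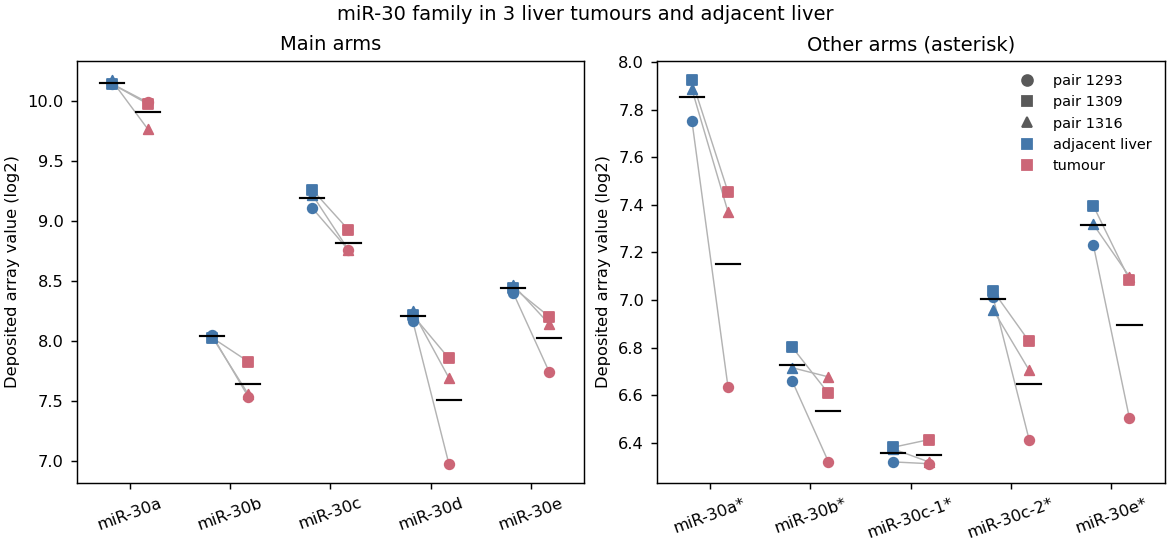
Deposited log2 value (vertical axis) of each miR-30 row on each array, main arms on the left and other arms on the right, adjacent liver in blue and tumours in red, with a marker shape per pair, grey lines joining pairs and black bars for group means. The 3 tumours lie below the 3 adjacent pieces in 8 of the 10 rows, and tumour 1293 is far below the other tumours for miR-30d and miR-30a*.

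Among the main arms, the largest difference was that of miR-30d, which in human liver cancer cells is known to repress GNAI2, a G protein subunit. The mmu-miR-30d row read 8.17, 8.22 and 8.25 in adjacent liver and 6.98, 7.86 and 7.70 in tumours. Every tumour was below every adjacent piece, and tumour 1293 was the lowest by a wide margin. The means were 8.21 ± 0.04 and 7.51 ± 0.47 (SD, n = 3 each), a difference of -0.70 ± 0.23 (SE), or a signal 38.5% lower (limma adjusted p = 0.157). Without tumour 1293 the difference was -0.44 (limma adjusted p = 0.00653).

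The row of mmu-miR-30e, the arm that differs from miR-30a by 1 base, gave 8.41, 8.45 and 8.47 in adjacent liver and 7.74, 8.20 and 8.14 in tumours. Here too the groups did not overlap and tumour 1293 was the lowest. The difference was -0.41 ± 0.13 (SE), or 24.7% lower (limma adjusted p = 0.148), and -0.27 without tumour 1293 (limma adjusted p = 0.0119).

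For mmu-miR-30b, which lies beside miR-30d in the genome, adjacent liver gave 8.05, 8.03 and 8.04 and tumours 7.54, 7.83 and 7.56. In this row tumours 1293 and 1316 were nearly level and tumour 1309 was nearest to the adjacent pieces. The difference of -0.40 ± 0.09 (SE), or 24.0% lower, had a limma adjusted p of 0.0931. That call changed with 1 array: the difference was -0.34 without tumour 1293 (limma adjusted p = 0.0329) and -0.49 without tumour 1309 (limma adjusted p = 0.0108).

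The mmu-miR-30c arm, known in mouse liver to repress Mttp, which loads lipid onto secreted lipoproteins, was measured at 9.11, 9.26 and 9.22 in adjacent liver and at 8.76, 8.93 and 8.76 in tumours. Its tumours lay close together, and its pair differences of -0.35, -0.33 and -0.46 were the most even of the 9 rows that had a lower value in all 3 tumours than in their paired pieces. The difference was -0.38 ± 0.08 (SE; 95% interval -0.56 to -0.20), with the lowest limma adjusted p of the family, 0.0711. Limma called it lower without tumour 1293 (-0.35, adjusted p = 0.0212) and without tumour 1309 (-0.44, adjusted p = 0.0302).

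The mmu-miR-30a arm, known in human cells for repressing BECN1, read 10.15, 10.15 and 10.18 in adjacent liver and 9.99, 9.98 and 9.77 in tumours. Tumour 1316, and not 1293, was its lowest. The difference of -0.24 ± 0.08 (SE), or 15.6% lower, was the smallest among the main arms (limma adjusted p = 0.148). It was -0.28 without tumour 1293 (limma adjusted p = 0.0343) but -0.07 after quantile normalization of the deposited values (limma adjusted p = 0.803). The adjacent arrays 1293 and 1309 hold the identical value for this row, 10.1469.

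**Figure D2:**
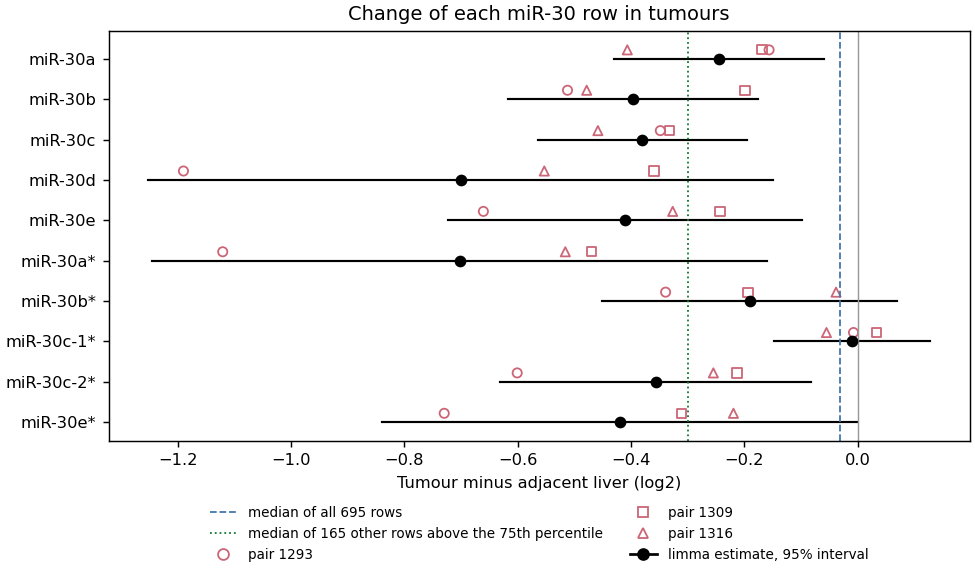
Tumour minus adjacent liver on the log2 scale (horizontal axis) for each miR-30 row, with the limma estimate and its 95% interval in black, the 3 pairs as open red symbols, and dashed and dotted lines at the medians of all 695 rows (-0.03) and of 165 other bright rows (-0.30). The symbol of pair 1293 lies farthest from 0 for miR-30d, miR-30e, miR-30b and 4 of the 5 other arms, but not for miR-30a or miR-30c.

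The other arms covered a wider range than the main arms. The largest difference was that of mmu-miR-30a*, which read 7.75, 7.92 and 7.89 in adjacent liver and 6.63, 7.45 and 7.37 in tumours. All tumours were below all adjacent pieces, and tumour 1293 was again far below the rest. The difference was -0.70 ± 0.22 (SE), or 38.5% lower (limma adjusted p = 0.151), and -0.44 without tumour 1293 (limma adjusted p = 0.00718).

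The seed mate miR-30e*, known in human glioma cells to raise NF-kappaB activity through its target NFKBIA, gave 7.23, 7.40 and 7.32 in adjacent liver and 6.50, 7.09 and 7.10 in tumours. These groups did not overlap, and the difference of -0.42 ± 0.17 (SE; limma adjusted p = 0.247) went to -0.22 without tumour 1293 (limma adjusted p = 0.0425). The arm miR-30c-2*, known in mouse and human cells to repress XBP1, a transcription factor of the response to unfolded proteins, read 7.01, 7.04 and 6.96 in adjacent liver and 6.41, 6.83 and 6.70 in tumours. Its groups were apart as well, with a difference of -0.36 ± 0.11 (SE; limma adjusted p = 0.151) that was -0.24 without tumour 1293 (limma adjusted p = 0.0305).

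In the remaining rows the groups overlapped. Adjacent liver gave 6.66, 6.80 and 6.72 for miR-30b*, and tumours gave 6.32, 6.61 and 6.68, a difference of -0.19 with a 95% interval from -0.45 to 0.07 (limma adjusted p = 0.408), and of -0.08 without tumour 1293 (limma adjusted p = 0.438). The row of miR-30c-1* stayed at the lower end of the scale on every array, with 6.32, 6.38 and 6.37 in adjacent liver and 6.31, 6.41 and 6.32 in tumours. Its difference was -0.01, with a 95% interval from -0.15 to 0.13 (limma adjusted p = 0.929), and it was 0.01 without tumour 1293. In this row 1 of its 3 pairs had the higher value in the tumour.

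Which arrays entered the fit decided how many miR-30 rows limma called lower. Without tumour 1293 it called 8, all but miR-30b* and miR-30c-1*, in a fit that called 12.2% of all rows lower. Without both arrays of pair 1293 it called 4 (miR-30a*, miR-30c, miR-30d and miR-30e), against 3.02% of all rows, and without tumour 1309 it called 2 (miR-30b and miR-30c), against 5.32%. Array weights, which gave tumour 1293 a weight of 0.07 and the other arrays 1.08 to 2.13, led to 7 calls, against 12.5% of all rows. Leaving out tumour 1316 or any 1 adjacent array led to 0, as did the pair number as a replicate block. By pair, the median difference of the 10 rows was -0.56 in pair 1293, -0.23 in pair 1309 and -0.37 in pair 1316, with a lower value in the tumour for 10, 9 and 10 rows. Over all 695 rows, the value was lower in the tumour for 397, 443 and 415.

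Bright rows of the array mostly had lower means in these tumours, and most miR-30 rows are bright. Over all 695 rows, 59.6% had a lower mean in tumours and the median difference was -0.03. The rows above the 75th percentile of the adjacent mean, 6.72, were 9 of the 10 miR-30 rows, all but miR-30c-1*, and 165 others. The member nearest to that limit was miR-30b*, at 6.73. Of these 165, 90.3% had a lower mean, with a median of -0.30, and in 64.2% the tumours lay below all adjacent pieces. An unadjusted limma p under 0.05 with a lower mean was found for 49.7% of them. The 165 had pair medians of -0.54, -0.17 and -0.25, so pair 1293 was lowest there too. By pair, 145, 135 and 140 of the 165 had a lower value in the tumour. Among the 348 rows at or below the median of 6.39, where miR-30c-1* lies, 46.6% had a lower mean and the median difference was 0.01. No test set the family against other bright rows, and nothing here shows its lower values to be particular to it.

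**Figure D3:**
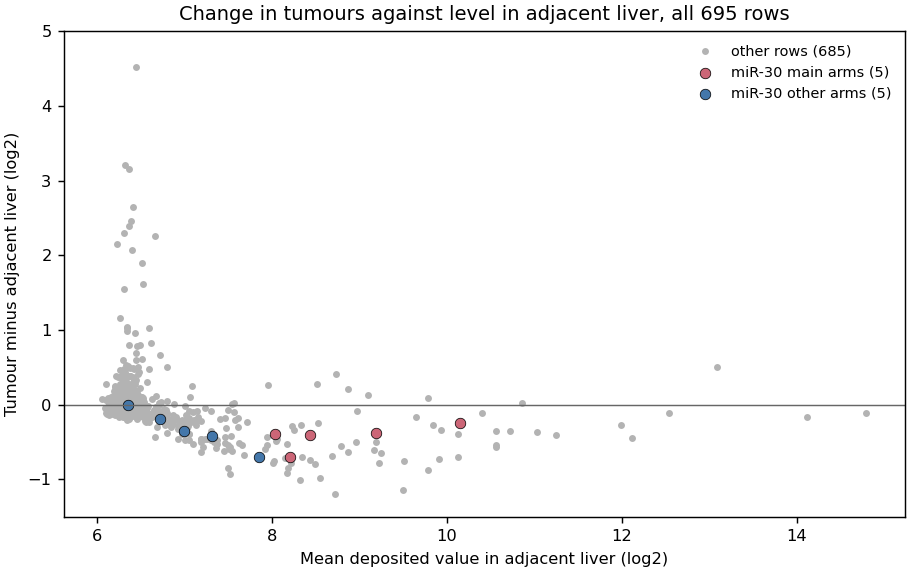
Tumour minus adjacent liver (vertical axis, log2) against the mean in adjacent liver (horizontal axis, log2) for all 695 rows, with miR-30 main arms in red and other arms in blue. The miR-30 rows lie within the band of other rows of like brightness, and the bright rows mostly lie below 0.

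Whether paralogs differed in their change was tested on the difference between 2 main arms within an array, which removes a shift common to the array. The size of such a difference also depends on the probes, so only its change is read. How far the probes for miR-30d and the other main arms read each other is not known here. Of the 10 pairs of main arms, 4 had groups that did not overlap, and in 3 of these miR-30d was the arm with the larger difference. These 3 share the miR-30d row, so they are not separate observations. How often other pairs of rows in the table had groups apart was not counted. Against miR-30a, the gap to miR-30d was 1.94 ± 0.03 in adjacent liver and 2.40 ± 0.53 (SD, n = 3) in tumours, and it was wider in the tumour by 1.03, 0.19 and 0.15 in the 3 pairs. Against miR-30c it was wider by 0.84, 0.03 and 0.09. The difference of miR-30d minus miR-30e went from -0.23 ± 0.01 to -0.52 ± 0.22 (SD, n = 3), with changes of -0.53, -0.12 and -0.23. So miR-30d had the largest difference of the main arms in each of the 3 pairs. Without tumour 1293, the changes were 0.15 for miR-30a minus miR-30d, 0.08 for miR-30c minus miR-30d and -0.17 for miR-30d minus miR-30e.

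The remaining pair with groups apart was miR-30a minus miR-30b, which was higher in tumours by 0.15 (0.36, 0.03 and 0.07 by pair), and by 0.06 without tumour 1293. Each of these 4 had a two-sided exact permutation p of 0.1, the smallest that 3 arrays against 3 allow. After adjustment over the 10 pairs it was 0.25. No pair of paralogs could pass at 0.05 in this test, so it cannot decide whether they differed. The neighbours miR-30b and miR-30d, from hairpins side by side on chromosome 15, differed by 0.30 in their change, with overlapping groups (exact permutation p = 0.2), and by 0.09 without tumour 1293. Differences in change among miR-30b, miR-30c and miR-30e were small, between -0.02 and 0.03, with SDs among tumours of 0.07 to 0.21. Each of these 3 changed sign without tumour 1293, to 0.0074 for miR-30b minus miR-30c, -0.08 for miR-30b minus miR-30e and -0.08 for miR-30c minus miR-30e. The near-identical miR-30a and miR-30e differed by 0.17 in their change, with overlapping groups and opposite signs among the pairs, and by -0.02 without tumour 1293. The change of miR-30a minus miR-30c, 0.14, was 0.07 without it.

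The arms of a hairpin were compared in the same way, as main arm minus other arm on each array, in a limma fit over the 178 such pairs of rows in the table. It called 3.37% of them at an adjusted p of 0.05, and 0 of the 5 miR-30 comparisons. At an unadjusted p under 0.05 there was 1 miR-30 comparison, against 18% of all. That was miR-30c minus miR-30c-1*, at 2.79, 2.88 and 2.85 in adjacent liver and 2.45, 2.52 and 2.44 in tumours, with no overlap. Its change of -0.37 ± 0.10 (SE; 95% interval -0.60 to -0.14; limma adjusted p = 0.139) was nearly equal in the pairs, at -0.34, -0.37 and -0.40. Without tumour 1293 it was called (-0.36, limma adjusted p = 0.0141), in a fit that called 19.1% of the 178. Since miR-30c-1* is near the lower end of the scale on every array, this change was close to that of miR-30c alone. Set against the arm of the other hairpin, miR-30c minus miR-30c-2* changed by -0.02 ± 0.12 (SE; limma adjusted p = 0.956), and by -0.11 without tumour 1293 (limma adjusted p = 0.448).

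In the Mir30a hairpin printed above, the gap between the arms was wider in the tumour in every pair. The difference miR-30a minus miR-30a* was 2.39, 2.22 and 2.29 in adjacent liver and 3.36, 2.52 and 2.40 in tumours. The groups did not overlap, but tumour 1293 held most of the change of 0.46 ± 0.26 (SE; limma adjusted p = 0.431), which was 0.16 without that array (limma adjusted p = 0.273). In Mir30e, whose arms differ from those of Mir30a by 1 base each, the change was 0.01 ± 0.11 (SE), with a 95% interval from -0.25 to 0.27 and overlapping groups, and it was -0.04 without tumour 1293. For miR-30b minus miR-30b* it was -0.21 ± 0.13 (SE; limma adjusted p = 0.488), with tumour 1316 at 0.88 and tumours 1293 and 1309 both at 1.22, below the 1.23 to 1.39 of the adjacent arrays.

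**Figure D4:**
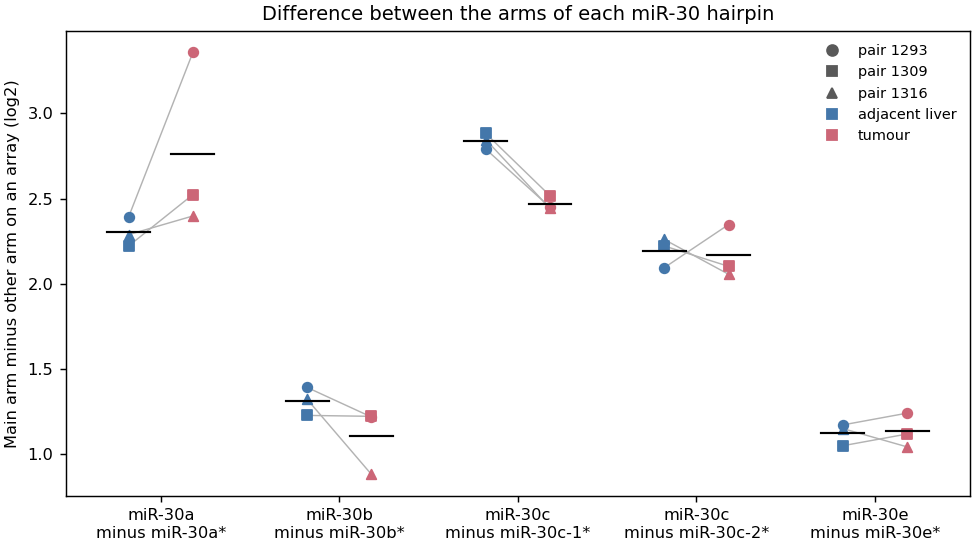
Main arm minus other arm on each array (vertical axis, log2) for the 5 miR-30 comparisons, adjacent liver in blue and tumours in red, with a marker shape per pair, grey lines joining pairs and black bars for group means. Only miR-30c minus miR-30c-1* shows near-parallel lines in all 3 pairs, and the wide change of miR-30a minus miR-30a* rests on tumour 1293.

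Set side by side by genomic neighbourhood, the tumour minus adjacent differences were as follows. On chromosome 1, miR-30a was at -0.24, miR-30a* at -0.70 and miR-30c-2* at -0.36. On chromosome 15, miR-30d was at -0.70, miR-30b at -0.40 and miR-30b* at -0.19. Without tumour 1293, miR-30a* and miR-30d were each at -0.44. Within Nfyc on chromosome 4, miR-30e was at -0.41 and miR-30e* at -0.42, and miR-30c-1*, near the lower end of the scale on every array, was at -0.01. Of the contrasts between neighbouring hairpins, miR-30b against miR-30d was tested, with overlapping groups. Its exact permutation p could not fall below 0.1 with so few arrays, so that test could not decide it. Contrasts of miR-30c with miR-30a and with miR-30e were tested too, but the miR-30c row joins hairpins of both chromosomes 1 and 4.

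A single other row of the table has a RefSeq mature sequence with a miR-30 seed, miR-384-5p, from a hairpin on the X chromosome. It shares the seed of the main arms.
miR-384-5p: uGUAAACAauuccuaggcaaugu
It read 6.34, 6.28 and 6.31 in adjacent liver and 6.32, 6.27 and 6.28 in tumours, at the lower end of the scale on all arrays. The difference was -0.02 ± 0.05 (SE), with a 95% interval from -0.14 to 0.11 (limma adjusted p = 0.861).

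The mean of the 5 main arms was 8.78, 8.82 and 8.83 in adjacent liver and 8.20, 8.56 and 8.39 in tumours. Among 338 rows outside the family with a mean above that of the median row, those whose values followed this mean most closely over the 6 arrays were miR-338-3p (Pearson r = 0.994), miR-592 (0.992), miR-139-5p (0.990), miR-23b (0.990) and miR-203 (0.989). Their tumour minus adjacent differences were -0.46, -0.38, -0.52, -0.78 and -0.63, and limma called none of them, with adjusted p from 0.0933 to 0.12 (5 rows chosen for their likeness). The 6 points fall into the 2 tissues and share the low tumour 1293, and 82 of the 338 rows had an r above 0.9. The other arms followed the mean of the main arms with r of 0.97 for miR-30c-2*, 0.96 for miR-30a*, 0.91 for miR-30e*, 0.82 for miR-30b* and 0.48 for miR-30c-1*.

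Most marker microRNAs of liver cell types also had lower means in tumours, as did 59.6% of all rows and 90.3% of the 165 other bright rows. Marker differences are not given without tumour 1293, so how far they rest on that array is left unstated. All 8 rows listed for hepatocytes had a lower mean in tumours, with a median of -0.65. Their summed linear signals, mostly miR-122, were 34900 to 35870 in adjacent liver and 26296 to 34682 in tumours. As the top row of every array, miR-122 may be limited by quantile normalization in the change it can show. Limma called 0 of the 8, with miR-122 at -0.11 (adjusted p = 0.663), miR-192 at -0.45, miR-194 at -0.76 and miR-215 at -0.03. The list also held miR-101a at -1.19 (adjusted p = 0.149), miR-101b at -0.69, miR-193 at -0.60 and miR-365 at -0.71. Whether these last rows are particular to hepatocytes was not tested. In the list for bile duct and other epithelia, 5 of 5 were lower in the mean, with a median of -0.40. Limma called miR-200a and miR-200b lower, the only 2 of the 695 rows that it called so. The summed signal of the 5 was 587 to 637 in adjacent liver and 417 to 493 in tumours. The stromal markers had a lower mean in 4 of the 5 measured of 6 listed, with sums of 766 to 833 in adjacent liver and 508 to 623 in tumours. Their median was -0.53, and the exception was miR-145 at 0.07. That row read 6.27, 6.27 and 6.30 in adjacent liver and 6.63, 6.26 and 6.17 in tumours. Of the leukocyte markers, 4 of 6 had a lower mean, with sums of 1002 to 1162 and 715 to 1047. Their median was -0.29, and the exceptions were miR-150 at 0.18 and miR-155 at 0.0015. The miR-150 row read 6.31, 6.44 and 6.57 in adjacent liver and 7.02, 6.36 and 6.49 in tumours.

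The endothelial sums were 1442 to 1546 in adjacent liver and 1215 to 1510 in tumours, from 2 of 2 markers with a lower mean. The erythroid sums were 724 to 1365 and 696 to 1084, again with 2 of 2 lower. On the mean of log2 values, tumour 1293 was the lowest tumour in every list except that for bile duct and other epithelia. On the summed linear signal it was the lowest tumour for stromal, leukocyte and erythroid markers, while tumour 1316 was the lowest for the hepatocyte, endothelial and epithelial lists. The part of these cell types in the miR-30 differences was not tested.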

How the data were processed

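MicroRNAs were measured on 1-colour Agilent mouse arrays (Cyanine3-pCp label) in 3 tumours and 3 adjacent pieces, per the labels. The values the authors deposited, read here as log2, were made with RMA (background correction, quantile normalization and summary over probes), which the submitters' processing notes list beside limma with no version. The log base itself is not stated, so percentages and linear sums rest on that. Scanner files were not analysed here, and a genome build is not given in the sources used here.

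Members, marker lists and tests were chosen with earlier results of these data known. All 695 rows were fitted with limma 3.58.1 in R 4.3.3 (lmFit, eBayes, two-sided, no block, Benjamini-Hochberg over all rows, threshold 0.05), as were 178 arm differences. Paralog differences had an exact permutation test (scipy 1.17.1). The fits were first checked on simulated data with the same spread in both groups. That check does not cover the wider spread of the tumours here. Rows named were the members, rows sharing a member's seed in RefSeq, the 5 most alike rows and marker rows. The tumour titled 1316 has a different number in its source label. The pairing comes from labels that name the tumour each piece lay beside, less certain for 1316; deviations from group means correlated at -0.05, 0.07 and -0.003 within pairs. No 2 arrays were identical. Alternatives were the replicate block, other scalings, a filter on dim rows, an intensity trend with robust eBayes, array weights, and leaving out each array or pair. Plots used matplotlib 3.10.9 under Python 3.11.15.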

Additional observations from a re-analysis of the deposited data

How the results depend on the processing

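Over 17 alternatives, 33 values were recomputed 492 times: 428 kept direction and side of the threshold or size, 24 passed the threshold where they had not, 0 lost it, 11 counts moved and 29 small differences changed sign. The replicate block called 0 miR-30 rows lower, as with no block, and changed no other call of the family. Limma called 7 lower with array weights and 0 to 8 when arrays or pairs were left out. Over all rows, the calls lower in tumours numbered 2 with all arrays and 0 (the block, also without pair 1316, the robust trend, and without tumour 1316, pair 1316 or any 1 adjacent array), 87 (array weights), 85 (without tumour 1293), 37 (without tumour 1309), 21 (without pair 1293) and 6 (without pair 1309) in the settings that changed it. The cause of these changes was not tested. The difference of miR-30a moved most with scaling, to -0.07 after quantile normalization. The setting that combined the replicate block with leaving out pair 1316 is called the combined setting here. The difference of miR-30c-1* was 0.0124 in the combined setting (-0.01 with the replicate block alone), and -0.0426 to 0.0124 with arrays left out. Arm differences called numbered 1 with array weights and 0 to 1 with arrays left out. The change of miR-30c minus miR-30c-2* was 0.0178 after quantile normalization, 0.0665 in the combined setting (-0.02 with the replicate block alone), and -0.16 to 0.0665 with arrays left out. That of miR-30e minus miR-30e* was -0.004 after quantile normalization, -0.0428 with array weights, and -0.0431 to 0.0689 with arrays left out. Paralog pairs with groups apart numbered 7 in the combined setting (4 with the replicate block alone), and 4 to 7 with arrays left out. Groups of fewer arrays come apart more easily, and the block does not alter which values overlap. The higher counts are therefore not read as a larger difference between paralogs. With arrays left out, changes ranged from -0.0163 to 0.29 for miR-30a minus miR-30e, -0.0917 to 0.0570 for miR-30b minus miR-30c, -0.0776 to 0.11 for miR-30b minus miR-30e, and -0.11 to 0.11 for miR-30c minus miR-30e. The other 9 miR-30 rows kept a lower mean in tumours under every alternative. Signal over background was not analysed here, and rows near the lower end, such as miR-30c-1*, may hold no signal.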
